A study of Homo sapiens with 6 samples.

Results

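The cholesterol and fatty acid synthesis genes examined here are 30 listed genes, and 28 of them were measured among 18404 genes with values. They fall into 16 enzymes of sterol synthesis (14 measured), 6 genes of sterol sensing and transport (all measured) and 8 enzymes of fatty acid synthesis (all measured). FDFT1 and HSD17B7 are not analysed here as genes. The gene list was given by name, and each measured gene had 1 probe set with a single gene symbol. The samples were 2 small cell lung cancer cell lines, H69M and H69, with 3 arrays of each. The labels give no treatment, time or medium and do not say how H69M was obtained or whether either line is a single clone. Both lines carry the same cell type label. Levels are log2 values from Affymetrix whole-transcript arrays, so a difference of 1 is a 2-fold difference.

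Cells make cholesterol from acetyl-CoA through mevalonate, farnesyl pyrophosphate and squalene, and make fatty acids from the same acetyl-CoA through malonyl-CoA. Transcription of both branches is driven by the SREBP factors, which are held in the endoplasmic reticulum by INSIG proteins while sterols are plentiful and are carried to the Golgi by SCAP, where they are cut and released, when sterols run low. SREBP2, the product of SREBF2, acts mainly on sterol genes and on its own gene, whereas SREBP1, from SREBF1, acts mainly on fatty acid genes. Dividing tumour cells draw on both branches for membranes.

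The arrays of a line were alike over the named probe sets, with Pearson correlations of at least 0.994 within H69M and 0.997 within H69, against at most 0.951 between lines. The small cell lung cancer label was checked against neuroendocrine markers: 12 of 14 were measured, none of them lay below the 25th percentile of gene level in either line, and 0 rose and 8 fell in H69M. Of 12 fibroblast markers, 9 rose and 0 fell in H69M. The shares over all genes were 21.0% for rises and 23.2% for falls. The summed level of the fibroblast markers was 12.98 to 13.35 on the H69M arrays and 9.85 to 9.86 on the H69 arrays, and that of the neuroendocrine markers was 13.23 to 13.39 on the H69M arrays and 13.78 to 13.81 on the H69 arrays (log2 of the summed linear levels). Leukocyte markers summed to 8.97 to 9.02 in H69M and 8.93 to 8.99 in H69, and adipocyte and liver markers to 8.85 to 8.95 in H69M and 8.87 to 8.90 in H69. No value of this scale is 0, and the DPT, TCF21 and PDPN fibroblast markers did not pass the test. The fibroblast and neuroendocrine markers moved with the line, as did the lipid genes described here, and their part in those results was not tested. In RNA from a whole culture, fewer cells of a kind and less RNA per cell cannot be told apart.

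In H69M, 10 of the 20 measured genes of sterol synthesis, sensing and transport were lower, 3 were higher and 7 did not pass, and of the 8 fatty acid genes 3 were lower, 1 was higher and 4 did not pass. Of all 28 measured genes, limma called 13 lower in H69M and 4 higher (Benjamini-Hochberg adjusted p below 0.05 over all genes), and 11 did not pass. Over all genes, 44.2% passed in either direction, 23.2% as lower and 21.0% as higher, against 60.7%, 46.4% and 14.3% of the listed genes. The listed genes are bright, with 26 of 28 at or above the median level, and among the genes at or above that level 56.7% passed, 30.4% as lower and 26.3% as higher. The share that passed in either direction was therefore close to that of other bright genes, while the share that passed as lower was above it. The median log2 fold change (H69M minus H69) was -0.22 over the listed genes and -0.041 over all genes. No listed gene differed by as much as 2-fold: the extremes were INSIG1 at -0.86 and ELOVL6 at 0.77. A log2 fold change of -0.5 or below with a call was reached by 5 of the 28, INSIG1, ACAT2, SREBF2, HMGCS1 and STARD4, against 9.44% of all genes. The H69M and H69 arrays did not overlap in 20 of the 28 genes (16 lower and 4 higher in H69M). The same held for 55.8% of all genes (5530 lower and 4743 higher of 18404). With each array centred on the median of its named genes, all genes split into 3110 higher and 6827 lower, against 3866 and 4274 as deposited, and the median of all genes moved to -0.131, so small changes are to be read relative to that shift.

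**Figure D1:**
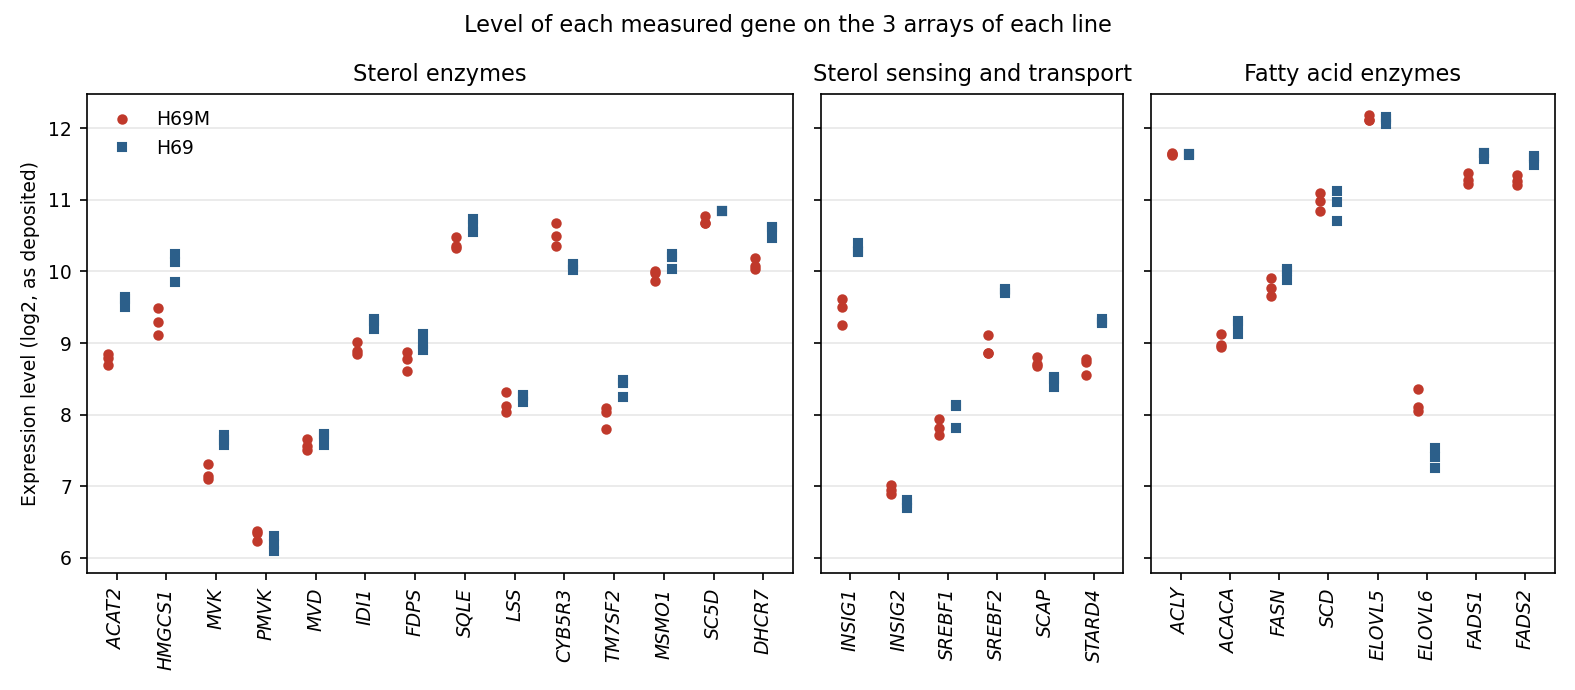
Deposited log2 expression level (vertical axis) of each measured gene (horizontal axis), with a red circle for each of the 3 H69M arrays and a blue square for each of the 3 H69 arrays, in 3 panels for the sterol enzymes, the sterol sensing and transport genes and the fatty acid enzymes. The circles of INSIG1, SREBF2, STARD4, ACAT2 and HMGCS1 lie clear below the squares, and those of ELOVL6 and CYB5R3 clear above them. Levels of different genes come from different probes and are not to be set against each other.

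Among the sensing and transport genes, the factor gene SREBF2, its retention partner INSIG1 and the cholesterol carrier STARD4 fell, and SCAP and INSIG2 rose slightly. INSIG1, which encodes a retention protein for SREBP and is itself an SREBP target, had log2 levels of 9.62, 9.51 and 9.25 on the H69M arrays, against 10.29, 10.39 and 10.27 on the H69 arrays. Every H69M array lay below every H69 array, and the fold change was -0.86 ± 0.098 (log2, SE; 1.81-fold lower; limma, Benjamini-Hochberg adjusted p = 0.000236). SREBF2 stood at 9.11, 8.86 and 8.86 in H69M and at 9.76, 9.74 and 9.70 in H69, a log2 fold change of -0.79 ± 0.080 (limma adjusted p = 0.00012). Its 3 H69 arrays lay close together (SD 0.030), whereas H69M replicate 1 stood above the other H69M arrays without reaching the H69 range. STARD4, a protein that moves cholesterol between membranes, had 8.78, 8.73 and 8.56 in H69M and 9.29, 9.34 and 9.28 in H69 (-0.61 ± 0.071, log2, SE; limma adjusted p = 0.000263). SREBF1 did not pass: its levels were 7.94, 7.81 and 7.71 in H69M and 8.14, 8.12 and 7.81 in H69, and the 95% interval of its log2 fold change ran from -0.45 to 0.042. H69 replicate 3 was the low array of that gene, and without it SREBF1 was called lower (-0.31, limma adjusted p = 0.0257). Whether SREBF2 fell more than SREBF1 was not tested. SCAP, the escort of SREBP, was at 8.80, 8.71 and 8.68 in H69M and at 8.50, 8.53 and 8.39 in H69, 0.26 ± 0.065 higher (log2, SE; limma adjusted p = 0.0132). INSIG2, the second retention protein, was 0.19 ± 0.063 higher (limma adjusted p = 0.0402), and its call was lost under 9 alternatives, with adjusted p up to 0.201 when the arrays were centred on their medians.

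MIR33A, a microRNA gene inside an intron of SREBF2, was named after its value was seen: its hairpin probe set was dim, at 3.34, 3.29 and 3.67 in H69M and 3.48, 3.40 and 3.32 in H69, and did not pass (limma adjusted p = 0.826).

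Of the 7 measured enzymes from acetoacetyl-CoA to farnesyl pyrophosphate, 4 fell (57.1%) and 0 rose. Of all genes at or above the median level, 30.4% fell and 26.3% rose. ACAT2, the cytosolic thiolase that makes acetoacetyl-CoA, had 8.79, 8.70 and 8.85 in H69M, against 9.61, 9.64 and 9.50 in H69. The lines did not overlap and the spread within each was small (SD 0.079 in H69M and 0.074 in H69), giving a log2 fold change of -0.80 ± 0.069 (SE; limma adjusted p = 4.89e-05). HMGCS1, which condenses acetoacetyl-CoA with a further acetyl-CoA to HMG-CoA, had 9.49, 9.30 and 9.11 in H69M and 10.13, 10.24 and 9.85 in H69. Its arrays were more scattered than those of ACAT2, with an SD of 0.19 in H69M and 0.20 in H69, and the log2 fold change was -0.78 ± 0.13 (SE; limma adjusted p = 0.00144). MVK, the kinase that phosphorylates mevalonate, stood at 7.31, 7.14 and 7.10 in H69M and at 7.72, 7.65 and 7.57 in H69 (-0.46 ± 0.076, log2, SE; limma adjusted p = 0.00159). IDI1, the isomerase that interconverts the isoprenyl units, stood at 9.01, 8.89 and 8.84 in H69M and at 9.34, 9.31 and 9.19 in H69 (-0.37 ± 0.071, log2, SE; limma adjusted p = 0.00367). PMVK and MVD, the steps between MVK and IDI1, did not pass. PMVK, phosphomevalonate kinase, had a log2 fold change of 0.13 with a 95% interval from -0.048 to 0.30, and MVD, the decarboxylase, had -0.095 with an interval from -0.26 to 0.067. FDPS, which makes farnesyl pyrophosphate, was lower on every H69M array (8.88, 8.78 and 8.61, against 8.98, 9.13 and 8.90 in H69) and did not pass (-0.24, limma adjusted p = 0.0629). It passed as lower under some alternatives, such as eBayes with trend (limma adjusted p = 0.0356). FDPS shares sequence with a pseudogene: the 2 probe sets annotated to both FDPS and FDPSP2 had log2 fold changes of -0.40 and -0.24, so its value is less certain.

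Of the 7 measured enzymes that act from squalene onwards, 3 fell (42.9%) and 1 rose (14.3%). Of all genes at or above the median level, 30.4% fell and 26.3% rose. DHCR7, which performs the last reduction to cholesterol in one arm of the pathway, had 10.19, 10.04 and 10.07 in H69M and 10.60, 10.62 and 10.47 in H69 (-0.46 ± 0.070, log2, SE; limma adjusted p = 0.000981). TM7SF2, a sterol C14 reductase, had 8.09, 7.80 and 8.03 in H69M and 8.44, 8.48 and 8.25 in H69 (-0.42 ± 0.097, log2, SE; limma adjusted p = 0.00867). Neither gene had an H69M array that reached the lowest H69 array. SQLE, the squalene epoxidase, stood at 10.48, 10.33 and 10.35 in H69M and at 10.65, 10.73 and 10.55 in H69 (-0.26 ± 0.072, log2, SE; limma adjusted p = 0.0202), and its call was lost when H69 replicate 1 or 2 or H69M replicate 2 or 3 was left out (limma adjusted p between 0.0586 and 0.0736). MSMO1, the C4 methyl oxidase, and SC5D, the C5 desaturase, were lower on every H69M array and did not pass (-0.21 with limma adjusted p = 0.0533, and -0.14 with limma adjusted p = 0.083). Both passed as lower under some alternatives, such as eBayes with trend (limma adjusted p = 0.0213 and 0.0231). LSS, lanosterol synthase, overlapped between the lines (-0.084, 95% interval from -0.27 to 0.10). CYB5R3 went the other way. It encodes cytochrome b5 reductase, which passes electrons to sterol and fatty acid oxidases and serves other pathways too, and it had 10.36, 10.49 and 10.67 in H69M and 10.09, 10.10 and 10.02 in H69 (0.44 ± 0.085, log2, SE; limma adjusted p = 0.00379). The probe set shared by HSD17B7, the 3-keto sterol reductase, and its pseudogene HSD17B7P2 had 7.15, 7.03 and 6.89 in H69M and 7.29, 7.36 and 7.28 in H69 (-0.29), and which of the pair it reports cannot be told apart.

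**Figure D2:**
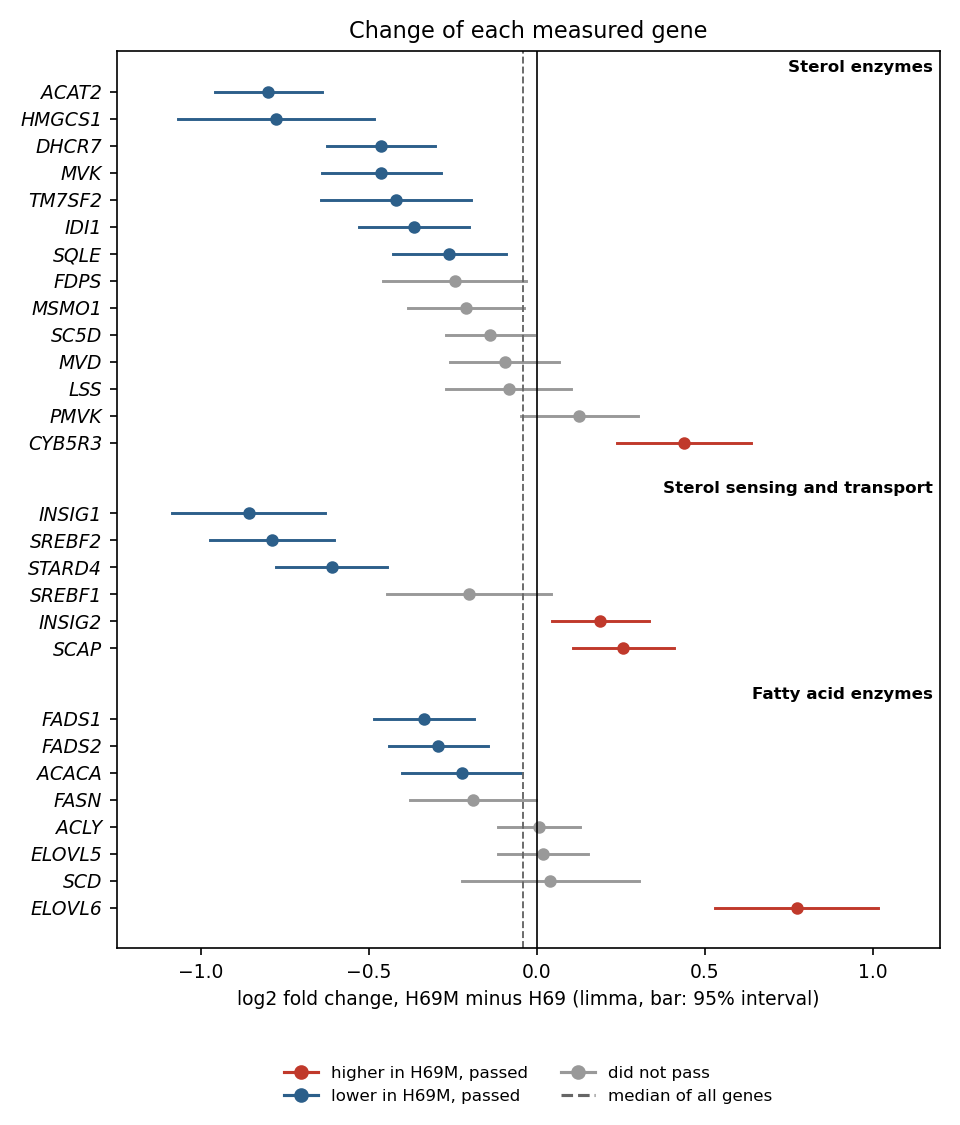
Log2 fold change of each measured gene, H69M minus H69 (horizontal axis; point, limma estimate; bar, 95% interval), with the genes down the page by group. Red marks genes that passed as higher in H69M, blue those that passed as lower and grey those that did not pass. The dashed line is the median of all genes, -0.041. The sterol enzymes run from ACAT2 at -0.80 to CYB5R3 at 0.44, and the fatty acid enzymes from FADS1 at -0.34 to ELOVL6 at 0.77, where 3 are blue, 1 is red and 4 are grey.

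Promoters are shown for the listed genes with a called log2 fold change of at least 0.5 in size, at every RefSeq start site, because SREBP is known to bind next to the factor NF-Y. ACAT2 also changed by that much and is named only. RefSeq start sites (GRCh38.p14) were found for 25 of the 28 measured genes, in 37 windows of 300 bases from 250 before to 50 after the start. The sterol regulatory element core TCACNCCAC, read on both strands like the other motifs, was in 1 of the 37 windows (2.70%), against 1.12% of the 20100 windows of measured genes and 1.13% of all 35116 windows. The NF-Y box CCAAT was in 62.2% of the windows, against 34.5% of those of measured genes and 34.6% of all. The Sp1 box GGGCGG was in 83.8%, against 57.3% of those of measured genes and 45.0% of all. The E-box CANNTG was in 45.9%, against 64.8% of those of measured genes and 68.7% of all. These motifs can overlap, and a match describes letters, not binding. Only these exact letters in these windows were searched, so their absence does not mean that a gene lacks a sterol element. Counting a gene if any of its windows held the box, 10 of the 11 lower genes with a window held an NF-Y box, as did 1 of the 4 higher genes and 8 of the 10 that did not pass. The share per gene over all measured genes was not computed, and the 9 listed genes with more than 1 window had more chances to count. The boxes of FADS2, which fell, and CYB5R3, which rose, lay after the start. Whether the box goes with the direction of change was not tested. SREBF2 holds the sterol element core, whose bases lie 133 to 125 before the start, with an NF-Y box between it and the start. STARD4 holds 2 NF-Y boxes and INSIG1 holds 1. HMGCS1 has 2 start sites, whose windows overlap, and holds 2 NF-Y boxes before one and 0 before the other. ELOVL6, the listed gene with the largest rise, holds neither the sterol element core nor an NF-Y box in its window. Each line gives the 250 bases before the start, 5′ to 3′ on the gene's strand, with the sterol element core and the NF-Y boxes of either strand in capitals.
INSIG1 (chr7:155297628-155297877, plus strand): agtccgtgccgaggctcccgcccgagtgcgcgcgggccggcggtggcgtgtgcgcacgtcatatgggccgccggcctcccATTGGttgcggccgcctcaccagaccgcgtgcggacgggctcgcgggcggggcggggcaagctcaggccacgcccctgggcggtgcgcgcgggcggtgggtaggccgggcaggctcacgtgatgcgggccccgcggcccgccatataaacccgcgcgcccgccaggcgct
SREBF2 (chr22:41832855-41833104, plus strand): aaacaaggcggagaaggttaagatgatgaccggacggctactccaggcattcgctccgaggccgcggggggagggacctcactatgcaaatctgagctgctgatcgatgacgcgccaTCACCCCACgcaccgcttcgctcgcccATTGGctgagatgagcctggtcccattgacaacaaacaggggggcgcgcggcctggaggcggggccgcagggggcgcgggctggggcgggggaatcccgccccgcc
HMGCS1 (chr5:43313413-43313662, minus strand): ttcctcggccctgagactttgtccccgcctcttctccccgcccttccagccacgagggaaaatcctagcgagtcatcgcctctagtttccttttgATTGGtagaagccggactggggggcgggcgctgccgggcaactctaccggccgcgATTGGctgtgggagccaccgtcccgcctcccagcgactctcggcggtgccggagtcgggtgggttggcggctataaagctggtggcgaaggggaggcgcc
HMGCS1 (chr5:43313182-43313431, minus strand): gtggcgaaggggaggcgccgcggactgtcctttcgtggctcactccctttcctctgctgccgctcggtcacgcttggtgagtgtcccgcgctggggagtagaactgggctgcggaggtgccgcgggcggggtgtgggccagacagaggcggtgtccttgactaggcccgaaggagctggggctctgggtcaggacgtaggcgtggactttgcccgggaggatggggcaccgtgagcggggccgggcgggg
STARD4 (chr5:111512536-111512785, minus strand): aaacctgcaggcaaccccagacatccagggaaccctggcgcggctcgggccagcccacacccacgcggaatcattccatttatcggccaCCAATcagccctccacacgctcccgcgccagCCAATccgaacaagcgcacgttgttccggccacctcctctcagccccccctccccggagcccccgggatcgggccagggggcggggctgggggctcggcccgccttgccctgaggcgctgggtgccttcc
ELOVL6 (chr4:110198616-110198865, minus strand): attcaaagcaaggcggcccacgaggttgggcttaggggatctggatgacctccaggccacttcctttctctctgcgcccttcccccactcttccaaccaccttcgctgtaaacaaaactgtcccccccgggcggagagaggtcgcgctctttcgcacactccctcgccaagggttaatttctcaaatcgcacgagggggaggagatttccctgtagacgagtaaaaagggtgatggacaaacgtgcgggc

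MMAB, a cobalamin adenosyltransferase gene, lies next to MVK in the opposite orientation, and was named after its value was seen. It had 8.66, 8.70 and 8.44 in H69M and 8.88, 9.05 and 8.98 in H69 (-0.37 ± 0.086, log2, SE; limma adjusted p = 0.00897). Both genes of this pair were thus lower on every H69M array.

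Of the 8 fatty acid enzymes, 3 fell (ACACA, FADS1 and FADS2) and 1 rose (ELOVL6), while ACLY, FASN, SCD and ELOVL5 did not pass. All 8 lay at or above the median level. Of them 37.5% passed as lower and 12.5% as higher, against 30.4% and 26.3% of all genes at or above that level. ACLY, which cleaves citrate to supply acetyl-CoA to both branches, had 11.66, 11.62 and 11.64 in H69M and 11.64, 11.64 and 11.62 in H69. The lines overlapped, and the 95% interval of the log2 fold change ran from -0.11 to 0.13. ACACA, the acetyl-CoA carboxylase that makes malonyl-CoA, had 9.13, 8.97 and 8.94 in H69M and 9.31, 9.26 and 9.13 in H69 (-0.22 ± 0.077, log2, SE; limma adjusted p = 0.0483). That call was lost when H69 replicate 1 or 2 or H69M replicate 2 or 3 was left out (limma adjusted p between 0.125 and 0.152), and H69M replicate 1 all but met H69 replicate 3. FASN, the fatty acid synthase, had 9.91, 9.66 and 9.77 in H69M and 10.00, 10.03 and 9.88 in H69, and its log2 fold change of -0.19 did not pass (limma adjusted p = 0.0938). FASN passed as lower under some alternatives, such as centring each array on its median (limma adjusted p = 0.0118) or array weights (0.0332). SCD, the desaturase that makes monounsaturated chains, overlapped between the lines, at 11.09, 10.99 and 10.84 in H69M and 11.12, 10.97 and 10.71 in H69, with a 95% interval from -0.22 to 0.30. ELOVL6, which lengthens saturated chains beyond palmitate, was the gene that rose: 8.05, 8.11 and 8.36 in H69M, against 7.41, 7.53 and 7.25 in H69. Its log2 fold change was 0.77 ± 0.10 (SE; 1.71-fold higher; limma adjusted p = 0.000558).

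The desaturases of polyunsaturated chains fell together and the elongase of the same pathway did not pass. FADS1, the delta-5 desaturase, stood at 11.37, 11.22 and 11.28 in H69M and at 11.65, 11.65 and 11.57 in H69 (-0.34 ± 0.064, log2, SE; limma adjusted p = 0.00341). FADS2, the delta-6 desaturase, stood at 11.34, 11.26 and 11.21 in H69M and at 11.59, 11.61 and 11.49 in H69 (-0.29 ± 0.063, log2, SE; limma adjusted p = 0.0064). No H69M array of either gene reached the H69 range. ELOVL5 overlapped between the lines, at 12.11, 12.18 and 12.12 in H69M and 12.16, 12.13 and 12.06 in H69 (95% interval of the log2 fold change from -0.11 to 0.15).

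Set side by side, the sterol enzymes had 7 genes lower and 1 higher of 14, with a median log2 fold change of -0.25, the sensing and transport genes 3 lower and 2 higher of 6 with a median of -0.41, and the fatty acid enzymes 3 lower and 1 higher of 8 with a median of -0.092. The median of the sterol enzymes was 0.16 below that of the fatty acid enzymes (log2), and this gap shrank to 0.062 when ACLY was left out or SREBF1 was counted with the fatty acid enzymes. The ranges of the branches overlap, and the difference between them was not tested. Within the sterol enzymes, the median was -0.37 for the 7 genes up to farnesyl pyrophosphate and -0.21 for the 7 from squalene onwards. Within the fatty acid enzymes it was 0.0065 for ACLY, ACACA, FASN, SCD and ELOVL6 and -0.29 for FADS1, FADS2 and ELOVL5.

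The arrays of a line were not level over these genes. Against the H69 mean of each gene, the median difference of the sterol enzymes was -0.17, -0.27 and -0.33 on H69M replicates 1, 2 and 3 and 0.035, 0.057 and -0.092 on H69 replicates 1, 2 and 3. For the fatty acid enzymes the same values were -0.033, -0.14 and -0.15 in H69M and 0.029, 0.033 and -0.081 in H69. H69M replicate 1 thus lay above H69 replicate 3 in the fatty acid enzymes and below it in the sterol enzymes. H69 replicate 3 was the lowest H69 array for 27 of the 28 genes, and H69M replicate 1 the highest H69M array for 22. How often this held over all genes was not computed. Over all genes the shifts were smaller, at most 0.065 in size, and H69 replicate 3 lay below the H69 mean for 11839 of 18404 genes. Without H69 replicate 3 the listed genes gave 15 lower and 3 higher, and without H69M replicate 1 they gave 15 lower and 4 higher.

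**Figure D3:**
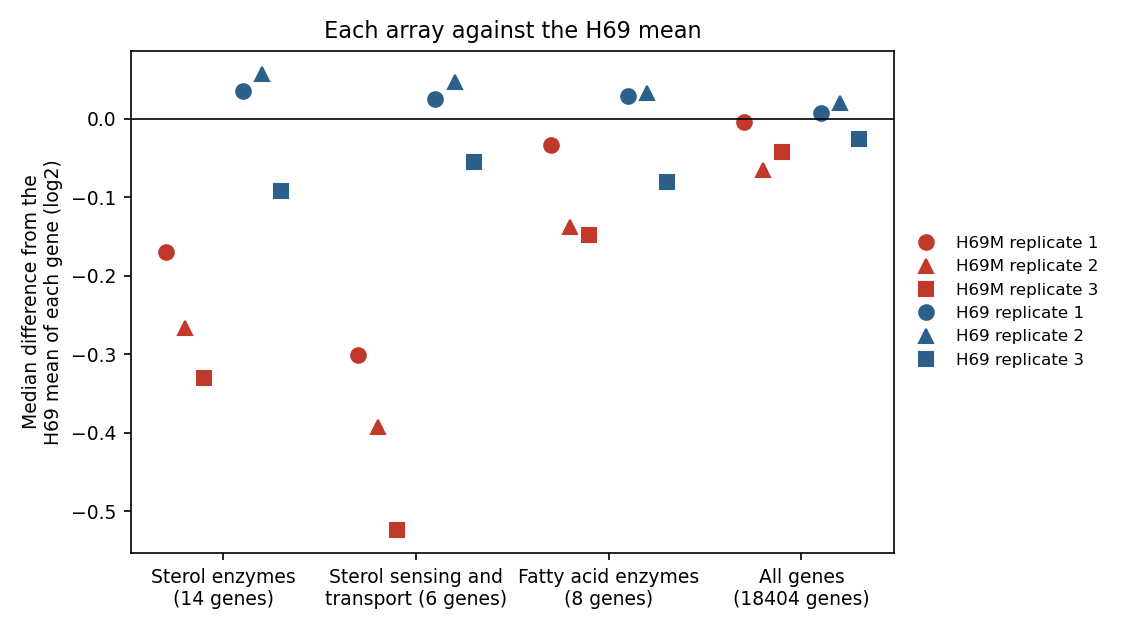
Median difference of each array from the H69 mean of each gene (vertical axis, log2) for the sterol enzymes, the sterol sensing and transport genes, the fatty acid enzymes and all genes (horizontal axis), with H69M arrays in red and H69 arrays in blue and a marker shape for each replicate. The H69M arrays lie below all H69 arrays in the first 2 sets, while in the fatty acid enzymes H69M replicate 1 (-0.033) lies above H69 replicate 3 (-0.081).

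For position on the chromosome, each gene was set beside its 10 nearest measured protein-coding neighbours, 5 on each side in RefSeq order. FADS1 and FADS2 are adjacent, and of the 10 neighbours of FADS1 6 were lower and 1 higher. Their median log2 fold change was -0.31, close to the -0.34 of FADS1. FADS2, itself a listed gene, is among the lower neighbours and enters that median. The higher neighbour was FADS3, at 9.23, 9.37 and 9.78 in H69M and 7.60, 7.81 and 7.74 in H69 (1.74 ± 0.14, log2, SE). Among the genes with larger falls, the neighbour median was -0.15 around ACAT2 (4 of 10 lower, 0 higher) and -0.15 around INSIG1 (4 and 0). It was -0.17 around SREBF2 (5 and 0), -0.13 around STARD4 (3 and 1) and -0.02 around HMGCS1 (3 and 3). These genes were picked for their large falls, so neighbour medians nearer 0 follow from that choice. Of all genes, 23.2% were lower and 21.0% higher. Whether the neighbours share in these falls was not tested. Around CYB5R3, which rose, 5 neighbours were lower and 1 higher (median -0.18).

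**Figure D4:**
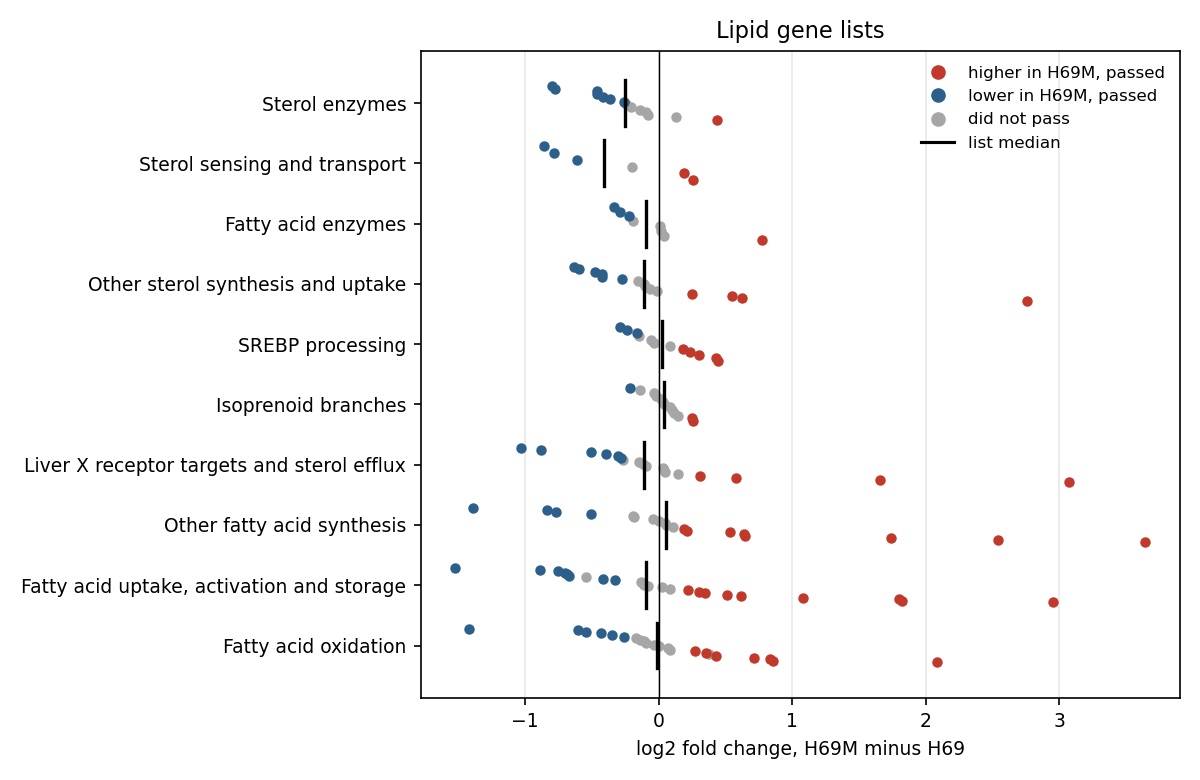
Log2 fold change, H69M minus H69 (horizontal axis), of every measured gene of the 3 groups described here and of 7 further lists of lipid genes (rows), with a black bar at each list's median. Red points passed as higher in H69M, blue as lower and grey did not pass. The changes of the sterol enzymes lie between -0.80 and 0.44, and the other lists hold rises of up to 3.64.

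The remaining genes of these pathways were described from lists of other sterol, isoprenoid and fatty acid genes. The share of a list that passed in either direction ran from 23.1% (isoprenoid genes) to 70.8% (fatty acid uptake, activation and storage). It was 44.2% of all genes (21.0% as higher, 23.2% as lower) and 56.7% of those at or above the median level. No list was tested against these shares. Of 15 other measured genes of sterol synthesis and uptake, 6 fell and 4 rose (median log2 fold change -0.11). The C14 demethylase CYP51A1, named after its value was seen, was among those that fell (-0.47 ± 0.068, log2, SE), as were the lipoprotein receptor SCARB1 (-0.63 ± 0.099) and the transporter NPC1L1 (-0.60 ± 0.057). NPC1L1 lay at the 31.7th percentile of level, with means of 5.74 in H69M and 6.34 in H69. NPC2, the lysosomal protein that hands cholesterol to NPC1, had the largest rise of this list, with levels of 11.18, 11.39 and 11.48 in H69M and 8.61, 8.65 and 8.51 in H69 (2.76 ± 0.088, log2, SE; limma adjusted p = 3.38e-07). STARD3, a late endosomal sterol transporter, rose by 0.62. Of 12 genes of SREBP processing and turnover, 5 rose and 3 fell (median 0.026), among them the protease genes MBTPS1 (0.44 ± 0.060, log2, SE) and MBTPS2 (0.30 ± 0.065), which cut SREBP in the Golgi, and ERLIN2 (0.43 ± 0.059), a scaffold for the turnover of sterol sensors. UBE2G2, a ubiquitin-conjugating enzyme, fell by 0.29. Of 13 genes that use isoprenyl units for protein prenylation, dolichol or ubiquinone, 2 rose and 1 fell (median 0.038): ICMT, which methylates prenylated proteins, was at 0.26, DHDDS of dolichol synthesis at 0.25 and PDSS1 of ubiquinone synthesis at -0.22.

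Of 18 genes of sterol efflux, storage and oxysterols, 4 rose and 6 fell (median log2 fold change -0.11). CH25H, which makes 25-hydroxycholesterol, a sterol known to hold SREBP back through INSIG, had 8.02, 8.53 and 7.61 in H69M and 5.01, 4.81 and 5.12 in H69 (3.07 ± 0.21, log2, SE; limma adjusted p = 1.34e-05). It was higher on every H69M array, with no overlap between the lines. The cholesteryl ester hydrolase NCEH1 rose by 1.66 ± 0.19, and the oxysterol hydroxylases CYP7B1 (-1.03 ± 0.073) and CYP27A1 (-0.88 ± 0.10) fell. Further genes of this list were named after their values were seen. The liver X receptor targets ABCG1 (-0.28) and MYLIP (-0.51) fell, as did SMPDL3A (-0.39). The efflux pump ABCA1 was at -0.27 and did not pass. LPCAT3 (-0.12), ABCG4 (0.040) and APOE (0.15) did not pass either, so the targets did not move as a set.

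Some other fatty acid genes had larger changes than any listed one, in both directions, while the medians of their lists lay near 0. Of 19 other synthesis genes, 8 rose and 4 fell (median log2 fold change 0.054). ME1, the malic enzyme that supplies NADPH, had 7.88, 8.14 and 7.95 in H69M and 4.42, 4.25 and 4.38 in H69 (3.64 ± 0.084, log2, SE), and PPARG, the nuclear receptor of fat cell differentiation, had 7.94, 8.20 and 8.40 in H69M and 5.76, 5.72 and 5.43 in H69 (2.54 ± 0.13). ELOVL7, an elongase of long saturated chains, fell by 1.39 on the log2 scale. Of 24 genes of uptake, activation and storage, 9 rose and 8 fell (median -0.098), led by the lipid droplet coat gene PLIN3 (2.95 ± 0.090), the acyl-CoA synthetase gene ACSL5 (1.82 ± 0.12) and the fatty acid binding protein gene FABP4 among the rises and by DGAT2, which makes triglyceride (-1.52 ± 0.15), among the falls. FABP4 was dim in both lines, with means of 4.77 in H69M and 2.98 in H69, both below the 25th percentile of gene level (5.58), so the size of its rise is uncertain. The H69 means of ME1, CH25H, CPT1A and ACSL5 also lay below that level, as did the H69M mean of PPARGC1A. Of 22 fatty acid oxidation genes, 7 rose and 6 fell (median -0.016). CPT1A, which admits long chains to mitochondria, was at 7.24, 7.41 and 7.49 in H69M and 5.24, 5.24 and 5.40 in H69 (2.09 ± 0.082, log2, SE), the carrier gene SLC25A20 was at 0.85 and HADHB at 0.83, and the coactivator PPARGC1A was at -1.42.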

How the data were processed

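Total RNA of H69M and H69 cells was measured on Affymetrix arrays, 3 per line. The deposited values are log2 levels per probe set, and per the submitters' processing notes RMA and limma were used, with no versions. RMA usually corrects background, normalizes quantiles and summarises probes by median polish, which compresses small folds of dim genes. The genome build is not given in the sources used here. Of 32321 probe sets, 19158 had 1 gene symbol in the platform annotation, 1388 had several and 11775 were not listed. For 637 genes with more than 1 probe set, the brightest was used. H69M was compared with H69 with limma 3.58.1 (R 4.3.3; lmFit, eBayes, two-sided, group as the only term), with Benjamini-Hochberg adjustment over 18404 genes. Standard errors of the log2 fold changes had a median of 0.075, and having 3 arrays a line limits the precision. The code was tested on simulated data. No label states that the arrays of a line came from separate cultures, so the p-values reflect array-to-array spread only, which could be technical. Same-numbered arrays did not deviate together (correlations of 0.021, 0.007 and 0.010 for numbers 1, 2 and 3).

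The members and lists were chosen with earlier results of these data known. The text names every measured member, from each further list up to 4 genes that passed, taken by size of change, marker genes, and others where it says so. Alternatives were the replicate block, other scaling of the arrays, filters on dim genes, other variance models, other choices of probe set, other branch membership, a shorter promoter window and each array left out in turn. Promoter sequences and gene order came from RefSeq tables (GRCh38.p14). These and the plots used matplotlib 3.10.9, pandas 2.3.3 and Python 3.11.15.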

Additional observations from a re-analysis of the deposited data

How the results depend on the processing

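Of the 17 listed genes that passed, 14 passed in the same direction under every alternative run, 11 lower and 3 higher; the exceptions were INSIG2, SQLE and ACACA. Over the alternatives the listed genes gave 14 to 22 calls, and 14 to 19 with 1 array left out (11 to 15 lower and 3 to 4 higher). Of the 474 values of listed genes under alternatives, 18 lost a call and 29 gained one. The gained calls were all lower, for FDPS, MSMO1, FASN, SC5D, SREBF1 and MVD. Leaving out 1 array gave 6867 to 8078 calls over all genes (3521 to 4450 lower and 3318 to 3628 higher), 7 to 9 for the sterol enzymes (6 to 8 lower, 1 higher), 4 to 5 for sensing and transport (3 to 4 lower, 1 to 2 higher), 3 to 5 for the fatty acid enzymes (2 to 4 lower, 1 higher), a median over the listed genes of -0.28 to -0.17 and a sterol minus fatty acid median of -0.18 to -0.12. Centring each array on the median of its named genes moved the split of all genes to 3110 higher and 6827 lower, against 3866 and 4274, and raised the lower sterol enzymes to 11. Centring on the median of all probe sets, chosen after seeing the data, gave 4229 higher and 3884 lower, and ACACA no longer passed (limma adjusted p = 0.0599). Higher genes of sensing and transport went to 1 with the replicate block, centred arrays, a repeated quantile normalization, a filter at the median level or eBayes trend, and without H69 replicate 1, 2 or 3 or H69M replicate 2 or 3; INSIG2 was the gene lost (under the median level filter it was not tested). The replicate block gave 18 calls of the listed genes (15 lower and 3 higher) and 7638 over all genes, and the numbers share no more than a label. With 1 array left out, ACLY ran from -0.0026 to 0.014, SCD from -0.071 to 0.13 and ELOVL5 from -0.0078 to 0.039. Only these 3 fold changes, all near 0, turned sign: ACLY to -0.083 with centred arrays and -0.0026 without H69M replicate 1; SCD to -0.049 (centred), -0.0009 (quantile), -0.013 (array weights), -0.071 (without H69 replicate 3) and -0.019 (without H69M replicate 1); ELOVL5 to -0.071 (centred), -0.079 (quantile), -0.0078 (without H69 replicate 3) and -0.001 (without H69M replicate 2). The sterol minus fatty acid median went to -0.062 with ACLY left out or SREBF1 moved. In the 150 bases before the start, the shares of member windows were 2.70%, 48.6%, 73.0% and 29.7% for the sterol element core, the NF-Y box, the Sp1 box and the E-box. In the same bases, the shares of the windows of measured genes were 0.557%, 24.6%, 48.2% and 39.8%. The cause of these changes was not tested. RMA values carry no detection call, and PMVK, at the 35.4th percentile of level, is the dimmest of the listed genes.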
